A study of Homo sapiens with 16 samples.

Results

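The endoplasmic reticulum (ER) chaperone and unfolded protein genes are a list of 44 genes, found by their symbols among the 57820 genes of the tables. They were followed in G401, a cell line derived from a kidney rhabdoid tumor, on days 1, 2, 3 and 5 of a BRD9 deletion time course. G401 is SMARCB1-mutant, so BRD9 KO and control cells alike lack this SWI/SNF chromatin remodelling subunit. BRD9 KO cells carried a CRISPR-Cas9 deletion of BRD9, a bromodomain subunit of a SWI/SNF subcomplex, and the control cells are labelled LacZ after a bacterial gene that human cells do not have. Each of the 8 groups (BRD9 KO and LacZ on each day) had 2 libraries, 16 in all. The study describes lines that stably carry Cas9, kept under blasticidin, then infected with guide vectors and selected with puromycin. It says that no clone of G401 without BRD9 could be recovered. The event from which days were counted is not given in the sources used here. The 2 libraries of a group are named biological replicates by the study, with no word on separate cultures or infections. The p-values rest on the spread between libraries of a group, estimated over all 8 groups. If the libraries were not separate cultures or infections, p-values do not cover differences between these.

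Proteins that enter the secretory pathway are threaded into the ER, folded there by chaperones and cross-linked by disulfide-forming enzymes, and those that fail to fold are sent back to the cytosol for degradation. When folding capacity falls short, the unfolded protein response is set off by membrane sensors: ATF6 is cut to release a transcription factor, IRE1 (ERN1) splices XBP1 mRNA so that it codes for an active factor, and PERK slows translation. ATF6 and XBP1 then raise the transcription of chaperone and degradation genes. Much of this reaches the promoters through the ER stress response element (ERSE), CCAAT and CCACG separated by 9 bases, which ATF6 binds together with NF-Y. A shorter form, ERSE-II, reads ATTGGNCCACG.

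The promoters of the genes below are shown because they hold an ERSE, by which members were compared further on, or an ERSE-II. RefSeq promoter windows of GRCh38.p14 (250 bases before to 50 after the start site) were searched on both strands, and 41 of the 44 genes had an entry, 3 of them under a newer symbol. Each sequence is the site with the bases around it, upstream of the start site and outside the transcript, given 5′ to 3′ on the strand of the gene, with the motif in capitals. Where the motif lies on the other strand it reads as its reverse complement, CGTGG, 9 bases and ATTGG, or for ERSE-II CGTGG, 1 base and CCAAT. HSPA5, HSP90B1, CALR and XBP1 hold an ERSE and were called lower in BRD9 KO cells on days 2, 3 and 5. CANX holds one and was called lower on days 3 and 5, while ERO1LB and CRELD2 hold one and passed the test on no day. Of the 3 with an ERSE-II, HERPUD1 was lower on days 3 and 5 while HYOU1 and SDF2L1 passed on no day.
HSPA5, chr9:125241376-125241424, minus strand, motif from position -66: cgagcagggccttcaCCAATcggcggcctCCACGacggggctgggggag
HSP90B1, chr12:103930201-103930249, plus strand, motif from position -194: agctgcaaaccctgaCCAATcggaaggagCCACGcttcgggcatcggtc
HSP90B1, chr12:103930306-103930354, plus strand, motif from position -89: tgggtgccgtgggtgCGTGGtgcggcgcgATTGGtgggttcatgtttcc
CALR, chr19:12938369-12938417, plus strand, motif from position -225: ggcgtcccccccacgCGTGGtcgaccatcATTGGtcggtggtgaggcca
CANX, chr5:179698763-179698811, plus strand, motif from position -151: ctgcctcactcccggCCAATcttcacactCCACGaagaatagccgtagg
XBP1, chr22:28800588-28800636, minus strand, motif from position -52: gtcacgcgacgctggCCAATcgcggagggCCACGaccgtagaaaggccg
ERO1LB, chr1:236282168-236282208, minus strand, motif from position -243: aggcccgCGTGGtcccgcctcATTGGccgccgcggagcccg
CRELD2, chr22:49918539-49918587, plus strand, motif from position -80: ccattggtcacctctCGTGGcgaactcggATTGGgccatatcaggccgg
HERPUD1, chr16:56932010-56932050, plus strand, motif from position -117: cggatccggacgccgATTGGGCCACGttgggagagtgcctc
HYOU1, chr11:119057365-119057405, minus strand, motif from position -185: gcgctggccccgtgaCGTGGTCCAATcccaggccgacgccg
HYOU1, chr11:119057259-119057299, minus strand, motif from position -79: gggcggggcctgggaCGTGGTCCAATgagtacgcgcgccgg
SDF2L1, chr22:21642099-21642139, plus strand, motif from position -188: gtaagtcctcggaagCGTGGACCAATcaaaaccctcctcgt

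As a check of the labels, BRD9 stood at 16.6 to 25.9 CPM (counts scaled to a common library size, with TMM normalization) in the 8 BRD9 KO libraries and at 45.8 to 64.5 in the 8 LacZ libraries, and was lower on every day. Library totals were 9185808 to 16560669 expected counts in BRD9 KO and 11252814 to 15430060 in LacZ. SMARCB1 lay between 0 and 0.19 TPM (a level corrected for transcript length) in the 16 libraries and the mesenchymal filament VIM between 1365.65 and 1921.64. Of the markers of other cells, CDH5, KDR, TEK, PTPRC, CD3E and HBB were at or under 0.09 TPM, EPCAM reached 0.78 and CDH1 0.91, and CD68, a lysosomal protein marking macrophages, ranged from 62.17 to 137.58. Libraries of a group differed by 1.05 to 1.15 times counting noise. In bulk RNA, fewer cells with a transcript and less of it per cell cannot be told apart.

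The list was expressed at very different levels, compared here between genes by TPM, which corrects for transcript length. In the 8 LacZ libraries the lectin chaperone CALR was the most abundant at 988.5 ± 152 TPM (mean ± SD, n = 8), followed by the ER HSP90 paralog HSP90B1 at 703.6 ± 104, the disulfide isomerases PDIA3 at 555.4 ± 45.5 and P4HB at 490.6 ± 28.5, CANX at 416.8 ± 37 and HSPA5 (BiP, the ER HSP70) at 328.5 ± 30.7. The SDs cover 4 days, and those of PDIA3 and P4HB overlap. The folding sensors were scarce, with ERN1 lowest of the 43 genes at 2.57 ± 0.673 TPM and ATF6 at 13.24 ± 0.724, while XBP1 reached 109.8 ± 4.76. DERL3, a degradation factor of secretory cells, had no more than 1 count in any library and was not tested. Its exons overlap those of SMARCB1 on the opposite strand, a gene that lay between 0 and 0.19 TPM in these libraries. Why DERL3 was not detected was not tested.

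**Figure D1:**
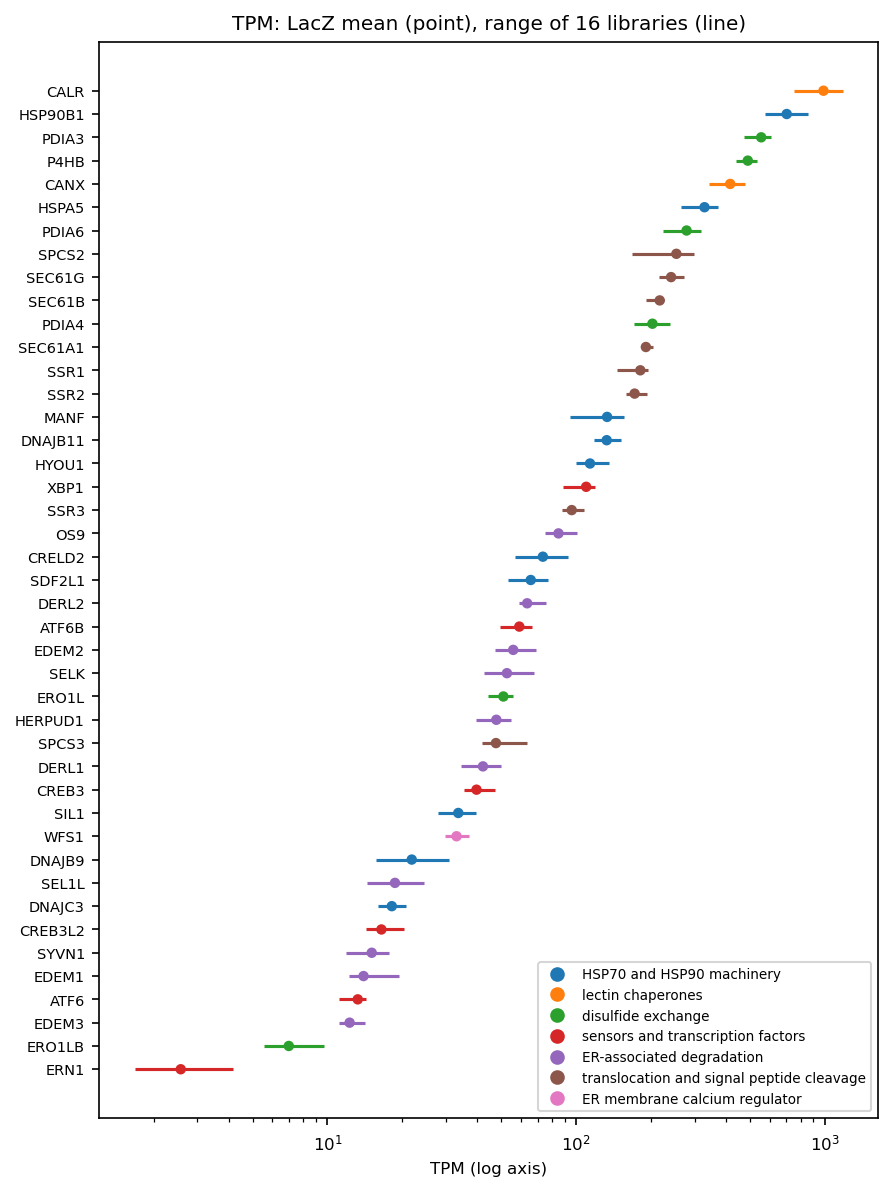
Levels of 43 ER genes in TPM on a log axis, with the mean of the 8 LacZ libraries as a point and the lowest to highest of all 16 libraries as a line, coloured by role. CALR at 988.5 TPM tops the list, chaperones and disulfide isomerases fill its upper end, and ERN1 at 2.57 TPM is at the bottom.

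Together the 44 genes made up 0.653% and 0.657% of all TPM in the 2 LacZ libraries of day 1, 0.744% and 0.748% on day 2, 0.606% and 0.601% on day 3 and 0.673% and 0.675% on day 5. In BRD9 KO cells they made up 0.646% and 0.643%, 0.721% and 0.712%, 0.594% and 0.588%, and 0.657% and 0.649% on the same days. On each day both BRD9 KO libraries were below both LacZ libraries, and both arms were highest on day 2 and lowest on day 3. Libraries of different days were collected apart, so a day and its handling cannot be told apart. The summed level was not tested, and the most abundant genes, such as CALR and HSP90B1, weigh most in it.

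BRD9 KO was compared with LacZ on each day to follow these genes after BRD9 loss. The changes were small, from -0.31 to 0.19 on the log2 scale over the 4 days, and most of those called were downward. They were led by the chaperones HSPA5, HSP90B1 and CALR, the isomerase PDIA6 and the transcription factor XBP1, the 5 genes lower on days 2, 3 and 5. Calls are those of edgeR's quasi-likelihood test, with a threshold of 0.05 on the Benjamini-Hochberg adjusted p over 15027 genes. On day 1, 0 of 43 were called (background 0.539% of genes tested, 0.273% higher and 0.266% lower), although 7 had an unadjusted p under 0.05, DESeq2 called HSPA5 lower (adjusted p = 0.0226), and a fit with no filter on low counts called HSPA5 and SPCS2 lower. On day 2, 0 were higher and 5 lower (11.6% of the members against a background of 2.7%, 1.12% higher and 1.58% lower). On day 3, 2 were higher and 8 lower (23.3% against 10.4%, 4.59% higher and 5.85% lower). On day 5, 2 were higher and 12 lower (32.6% against 15%, 7.53% higher and 7.45% lower).

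Abundant genes were called more often than others. Among the 4722 genes at or above the lower quartile of the members' mean log2 CPM, 5.61, the share called was 1.52% on day 1, 6.76% on day 2, 21.7% on day 3 and 28.7% on day 5, close to the members' share on days 3 and 5. By direction, those abundant genes split into 407 higher and 618 lower on day 3 and 637 higher and 720 lower on day 5. This set has only a lower bound and was not matched to the level of the genes compared with it. HSPA5 and HSP90B1, at means of 759.6 and 1017 CPM in LacZ, lie far above the bound, and DNAJB9 at 32.19 lies below it. The members' median log2 fold change was -0.01 on day 1, -0.04 on day 2, -0.02 on day 3 and -0.05 on day 5, beside a median of 0.00 over all genes on each day, and 23, 28, 26 and 28 of the 43 lay below 0. Over the 4 days 28 genes were called on no day, 6 on 1 day, 4 on 2 days and 5 on 3 days, and 8 were lower on both day 3 and day 5. The 4 comparisons use different libraries, but all share 1 estimate of the spread.

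The counts depended on single libraries and on the tool. Without BRD9 KO replicate 1 of day 2 the count was 2 and without LacZ replicate 1 of that day it was 1. On day 3 it was 4 without BRD9 KO replicate 1, 3 without LacZ replicate 1 and 5 without LacZ replicate 2. On day 2 a fit of only that day's libraries or with replicate numbers as a block gave 3. DESeq2 did not call MANF, PDIA6 and EDEM1 on day 3 or DNAJB9, ATF6, EDEM1 and HERPUD1 on day 5. Limma-trend on log2(TPM + 1) kept HSPA5 on day 2, HSPA5 and XBP1 on day 3, and HSPA5, HSP90B1, P4HB and SSR1 on day 5.

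**Figure D2:**
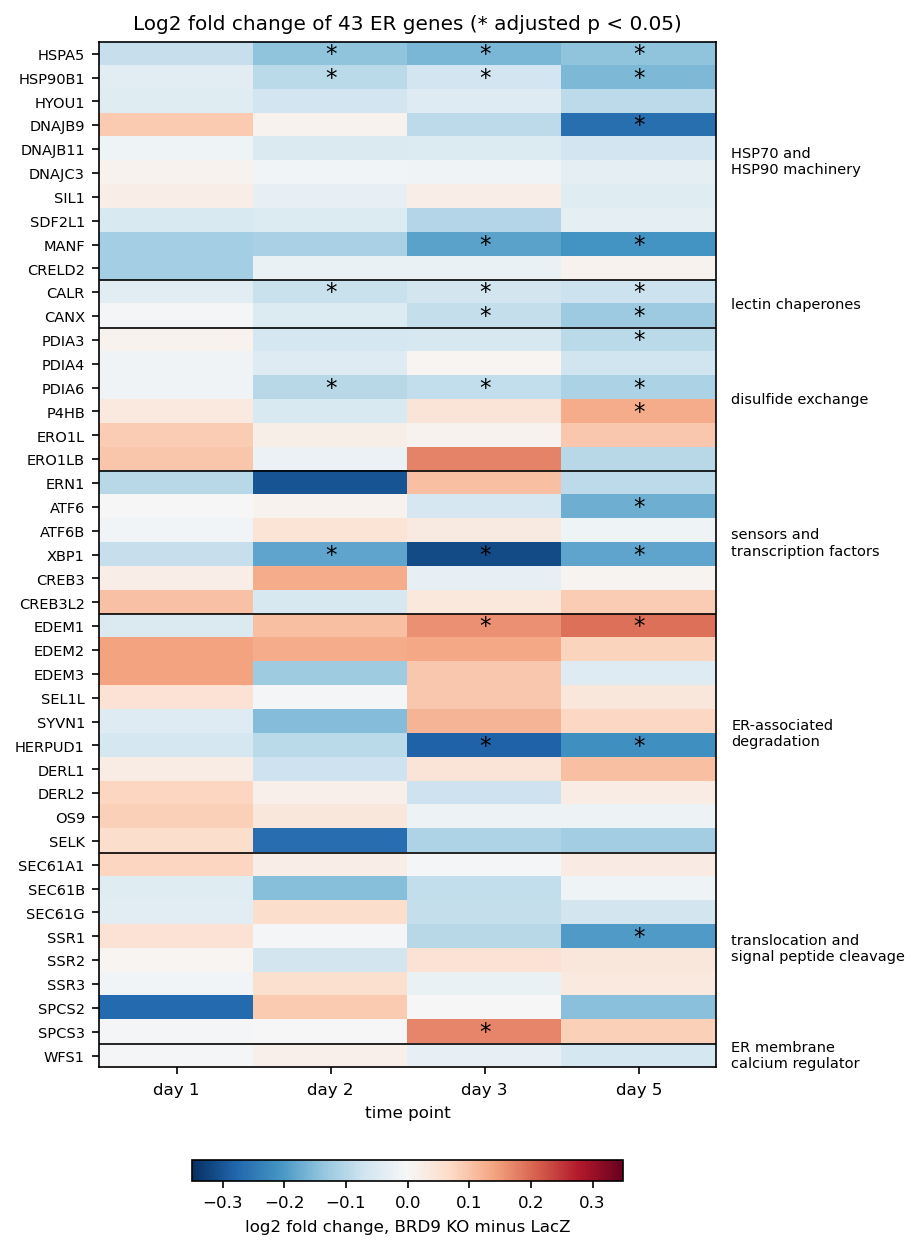
Log2 fold changes, BRD9 KO minus LacZ, of 43 ER genes (rows, grouped by role) on days 1, 2, 3 and 5 (columns), blue for lower and red for higher in BRD9 KO; an asterisk marks an adjusted p under 0.05. Asterisks number 0, 5, 10 and 14 from left to right, and all but EDEM1 and SPCS3 on day 3 and P4HB and EDEM1 on day 5 are on blue cells.

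The 10 genes grouped here as HSP70 and HSP90 machinery include MANF and CRELD2, which are neither HSP70 nor HSP90 proteins. Of the 10, 2 were lower on day 2, 3 on day 3 and 4 on day 5, 0 were higher on those days, and the median log2 fold change was -0.05, -0.06 and -0.08. The share lower was 20%, 30% and 40%, against 1.58%, 5.85% and 7.45% of all genes and 4.02%, 13.1% and 15.2% of the abundant genes. HSPA5 (ENSG00000044574.7, chr9:127997132-128003661 on GRCh37) binds unfolded chains and holds the sensors silent when it is free. HSPA5 stood at 748.6 and 765.8 CPM on day 1, 839 and 838.8 on day 2, 681.7 and 665 on day 3 and 768.1 and 769.8 on day 5 in LacZ cells. HSPA5 in BRD9 KO cells stood at 715.7 and 715.3 CPM on day 1, 752.9 and 769.6 on day 2, 599 and 607.4 on day 3 and 685.3 and 707.5 on day 5. Both BRD9 KO libraries were below both LacZ libraries on all 4 days. HSPA5 fell by 9.28% (day 2), then on day 3 it fell by 10.4% and on day 5 it fell by 9.37%. Its log2 fold change was -0.14 ± 0.019 (SE, adjusted p = 0.000188), -0.16 ± 0.019 (SE, adjusted p = 1.94e-05) and -0.14 ± 0.019 (SE, adjusted p = 3.23e-05). On day 1 it was -0.08 ± 0.019 (SE, adjusted p = 0.0731). These 3 calls of HSPA5 were kept under each of the 11 alternatives tried for each day.

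HSP90B1 (ENSG00000166598.8, chr12:104323885-104347709 on GRCh37), also called GRP94, folds a narrower set of clients such as integrins and Toll-like receptors. HSP90B1 stood at 941.6 and 955.3 CPM on day 1, 1231 and 1210 on day 2, 868.1 and 853.5 on day 3 and 1044 and 1034 on day 5 in LacZ cells. HSP90B1 in BRD9 KO cells stood at 923.1 and 925.7 CPM on day 1, 1149 and 1137 on day 2, 805.9 and 838.8 on day 3 and 931.9 and 932.2 on day 5. The BRD9 KO pair was lower than the LacZ pair on each day, by the least on day 1. Its log2 fold change was -0.09 ± 0.017 (SE, adjusted p = 0.00371) on day 2, -0.07 ± 0.018 (SE, adjusted p = 0.0198) on day 3 and -0.16 ± 0.018 (SE, adjusted p = 3.21e-06) on day 5. On day 2 its adjusted p was 0.0501 without BRD9 KO replicate 2 and 0.076 without LacZ replicate 1. On day 3 it was 0.0641 with only the libraries compared, 0.309 without BRD9 KO replicate 1 and 0.248 without LacZ replicate 1. The day 5 call was kept in all 11 alternatives.

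MANF, a small secreted ER protein that binds HSPA5, and DNAJB9 (ERdj4), a cochaperone that recruits HSPA5 to the sensor IRE1, were the other called genes of this group. MANF stood at 45.79 and 49.75 CPM in BRD9 KO against 54.53 and 53.69 in LacZ on day 3 and at 58.86 and 57.2 CPM in BRD9 KO against 64.89 and 69.4 in LacZ on day 5. On days 1 and 2 it was 58.68 and 54.85 CPM in BRD9 KO against 61.76 and 60.86 in LacZ and 65.79 and 67.52 CPM in BRD9 KO against 70.72 and 73.3 in LacZ, so that the BRD9 KO pair was the lower one throughout. Its log2 fold change was -0.19 ± 0.052 (SE, adjusted p = 0.0263) on day 3 and -0.21 ± 0.049 (SE, adjusted p = 0.00548) on day 5. The adjusted p of MANF on day 3 was 0.381 without BRD9 KO replicate 1, 0.164 without LacZ replicate 1 and 0.0992 without LacZ replicate 2. On day 5 it was 0.0821 without BRD9 KO replicate 2 and 0.0845 without LacZ replicate 2.

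DNAJB9 changed its order over time. DNAJB9 stood at 38.67 and 41.25 CPM on day 1, 30.49 and 30.43 on day 2, 28.6 and 28.11 on day 3 and 28.87 and 31.09 on day 5 in LacZ cells. DNAJB9 in BRD9 KO cells stood at 44.21 and 41.53 CPM on day 1, 32 and 29.09 on day 2, 26.66 and 26.51 on day 3 and 24.62 and 25.07 on day 5. The BRD9 KO pair was above the LacZ pair on day 1, the pairs overlapped on day 2, and BRD9 KO was below LacZ on days 3 and 5. It was called on day 5, at -0.27 ± 0.069 (SE, adjusted p = 0.0118) on the log2 scale. There its adjusted p was 0.0577 without BRD9 KO replicate 1, 0.0653 without BRD9 KO replicate 2 and 0.127 without LacZ replicate 2. The other 6 genes passed on no day: on day 5 the log2 fold change was -0.09 for the nucleotide exchange factor HYOU1, -0.04 for SIL1 of the same role, -0.07 and -0.03 for the cochaperones DNAJB11 and DNAJC3, -0.03 for SDF2L1, and 0.01 for CRELD2.

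CALR and CANX are the lectin chaperones, which hold newly made glycoproteins until they fold, CALR as a soluble and CANX as a membrane protein. CALR stood at 1068 and 1075 CPM on day 1, 1260 and 1247 on day 2, 849 and 841.2 on day 3 and 1127 and 1126 on day 5 in LacZ cells. CALR in BRD9 KO cells stood at 1058 and 1027 CPM on day 1, 1183 and 1194 on day 2, 803.4 and 813.8 on day 3 and 1072 and 1065 on day 5. BRD9 KO was below LacZ in both libraries of each day. The log2 fold change of CALR (chr19:13049392-13055303 on GRCh37) was -0.08 ± 0.015 (SE, adjusted p = 0.00614) on day 2, -0.06 ± 0.015 (SE, adjusted p = 0.0107) on day 3 and -0.08 ± 0.015 (SE, adjusted p = 0.0016) on day 5. On day 2 the adjusted p of CALR was 0.0644 without BRD9 KO replicate 1 and 0.086 without LacZ replicate 1. On day 3 it was 0.113 without BRD9 KO replicate 1 and 0.159 without LacZ replicate 1.

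CANX stood at 834.5 and 853.4 CPM on day 1, 1097 and 1073 on day 2, 862.2 and 869.7 on day 3 and 876.3 and 885.9 on day 5 in LacZ cells. CANX in BRD9 KO cells stood at 839.7 and 840.6 CPM on day 1, 1062 and 1037 on day 2, 819 and 815.8 on day 3 and 796.1 and 817.2 on day 5. The pairs overlapped on day 1, and the BRD9 KO pair was lower from day 2 on. Its log2 fold change was -0.01 on day 1, -0.05 on day 2 (adjusted p = 0.202), -0.08 ± 0.018 (SE, adjusted p = 0.00457) on day 3 and -0.13 ± 0.018 (SE, adjusted p = 5.35e-05) on day 5. The day 3 value of CANX lost its call (adjusted p = 0.0518) without LacZ replicate 2.

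The 6 genes of disulfide exchange moved both ways. PDIA3, the isomerase that works with the lectin chaperones, was 478.8 and 490.1 CPM in BRD9 KO against 501.5 and 504.3 in LacZ on day 3 and 524.9 and 536.8 CPM in BRD9 KO against 568.2 and 566.4 in LacZ on day 5. PDIA3 was below LacZ in both libraries of days 2, 3 and 5 but was called only on day 5, at -0.10 ± 0.02 (SE, adjusted p = 0.00238). PDIA6, an isomerase that also acts on the sensors, was 388.9 and 401.2 CPM in BRD9 KO against 424.6 and 419.2 in LacZ on day 2, 313.3 and 303.4 CPM in BRD9 KO against 326 and 328.6 in LacZ on day 3 and 359.6 and 354 CPM in BRD9 KO against 386.6 and 383.7 in LacZ on day 5. Its pairs did not overlap on those days, and its log2 fold change was -0.10 ± 0.024 (SE, adjusted p = 0.0361), -0.08 ± 0.025 (SE, adjusted p = 0.0324) and -0.11 ± 0.024 (SE, adjusted p = 0.00327). On day 2 the adjusted p of PDIA6 was 0.0796 with only the libraries compared, 0.0557 with replicate numbers as a block, 0.309 without BRD9 KO replicate 1, 0.23 without LacZ replicate 1 and 0.105 without LacZ replicate 2. On day 3 it was 0.0602 with no filter on low counts, 0.235 without BRD9 KO replicate 2, 0.145 without LacZ replicate 1 and 0.178 without LacZ replicate 2.

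P4HB (PDI itself, also the beta subunit of collagen prolyl hydroxylase) went the other way. P4HB stood at 652.9 and 657.9 CPM on day 1, 655.4 and 668.5 on day 2, 597.4 and 576.6 on day 3 and 642.9 and 632.4 on day 5 in LacZ cells. P4HB in BRD9 KO cells stood at 668.5 and 673.2 CPM on day 1, 634.3 and 641.7 on day 2, 598.7 and 613.4 on day 3 and 691.5 and 704 on day 5. BRD9 KO was above LacZ on days 1, 3 and 5 and below it on day 2. The day 5 difference was 0.13 ± 0.02 (SE, adjusted p = 0.000133) on the log2 scale, a rise of 9.45%, and was kept in all 11 alternatives. The oxidases that recharge the isomerases were not called, with ERO1L at 0.10 and ERO1LB at -0.10 on day 5, nor was the isomerase PDIA4 at -0.07.

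Of the 6 sensors and transcription factors, XBP1 was called on the most days. Gene counts do not separate its spliced from its unspliced mRNA. XBP1 stood at 111.8 and 115.5 CPM on day 1, 123.4 and 116.3 on day 2, 115 and 117.4 on day 3 and 118.1 and 111.1 on day 5 in LacZ cells. XBP1 in BRD9 KO cells stood at 104.9 and 109.4 CPM on day 1, 101.4 and 110 on day 2, 94.11 and 92.76 on day 3 and 99.37 and 102.4 on day 5. Both BRD9 KO libraries were below both LacZ libraries on all 4 days. XBP1 (ENSG00000100219.12, chr22:29190543-29196585 on GRCh37) fell by 12.1% on day 2. On day 3 it fell by 19.5% and on day 5 it fell by 12%. The log2 fold changes of XBP1 were -0.19 ± 0.046 (SE, adjusted p = 0.0378), -0.31 ± 0.047 (SE, adjusted p = 0.000172) and -0.18 ± 0.046 (SE, adjusted p = 0.0103). The day 3 call was kept in all 11 alternatives. On day 2 the adjusted p of XBP1 was 0.0743 with only the libraries compared, 0.0823 with replicate numbers as a block, 0.391 without BRD9 KO replicate 1 and 0.327 without LacZ replicate 1. On day 5 it was 0.0692 without BRD9 KO replicate 1 and 0.167 without LacZ replicate 1.

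Of the sensor genes, ATF6 was called on day 5 only and ERN1 on no day. ATF6 was 61.56 and 62.16 CPM in BRD9 KO against 59.31 and 64.08 in LacZ on day 1, with the pairs overlapping, and 49.87 and 49.17 CPM in BRD9 KO against 55.29 and 56.21 in LacZ on day 5, with BRD9 KO lower. The day 5 difference was -0.17 ± 0.047 (SE, adjusted p = 0.017), and its adjusted p was 0.0715 with no filter on low counts, 0.155 without BRD9 KO replicate 2, 0.0745 without LacZ replicate 1 and 0.102 without LacZ replicate 2. ERN1 was 7.088 and 5.926 CPM in BRD9 KO against 8.408 and 7.756 in LacZ on day 2 and 8.446 and 9.091 CPM in BRD9 KO against 8.24 and 7.998 in LacZ on day 3. The pairs lay apart in opposite directions on those days, at log2 fold changes of -0.30 ± 0.144 (SE) and 0.11 ± 0.135 (SE). Neither difference passed (adjusted p = 0.364 and 0.729), and ERN1 was counted at 66 to 140 expected counts per library, the fewest of the 43. The ATF6 paralog ATF6B was at -0.02 on day 5, and the related membrane-bound factors CREB3 and CREB3L2 were at 0.01 and 0.09, none of them called on any day by edgeR.

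ER-associated degradation (10 genes tested) had 1 gene higher and 1 lower on day 3 and again on day 5. The share called was 20% on each of these days, against 10.4% and 15% of all genes and 21.7% and 28.7% of the abundant genes. HERPUD1 (Herp, a membrane scaffold of the degradation complex; chr16:56966054-56978776 on GRCh37) was 38.01 and 39.9 CPM in BRD9 KO against 47.9 and 46.64 in LacZ on day 3 and 43.06 and 50.57 CPM in BRD9 KO against 55.14 and 54.96 in LacZ on day 5. On days 1 and 2 it was 43.76 and 43.96 CPM in BRD9 KO against 42.88 and 48.4 in LacZ and 40.95 and 43.55 CPM in BRD9 KO against 42.51 and 47.47 in LacZ, and the pairs overlapped. Its log2 fold change was -0.28 ± 0.074 (SE, adjusted p = 0.0183) on day 3 and -0.22 ± 0.07 (SE, adjusted p = 0.0451) on day 5. The adjusted p of HERPUD1 on day 3 was 0.179 without BRD9 KO replicate 1, 0.135 without LacZ replicate 1 and 0.072 without LacZ replicate 2. On day 5 it was 0.0558 with only the libraries compared, 0.328 without BRD9 KO replicate 1, 0.176 without LacZ replicate 1 and 0.136 without LacZ replicate 2.

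EDEM1, which extracts misfolded glycoproteins by trimming their mannose, was higher. It was 65.09 and 63.38 CPM in BRD9 KO against 56.23 and 58.84 in LacZ on day 3 and 54.59 and 54.22 CPM in BRD9 KO against 49.34 and 45.61 in LacZ on day 5. The BRD9 KO pair was above LacZ on days 2, 3 and 5 and below it on day 1. Its log2 fold change was 0.16 ± 0.047 (SE, adjusted p = 0.0348) on day 3 and 0.19 ± 0.051 (SE, adjusted p = 0.0151) on day 5. The adjusted p of EDEM1 on day 3 was 0.0726 with no filter on low counts, 0.255 without BRD9 KO replicate 1, 0.0746 without BRD9 KO replicate 2, 0.243 without LacZ replicate 1 and 0.0741 without LacZ replicate 2. On day 5 it was 0.0696 without BRD9 KO replicate 1, 0.0847 without BRD9 KO replicate 2 and 0.199 without LacZ replicate 2. OS9, a lectin that delivers substrates and the most abundant gene of this group by TPM, was 115.7 and 105.7 CPM in BRD9 KO against 113.3 and 109.8 in LacZ on day 5, with a log2 fold change of -0.02 (adjusted p = 0.838). EDEM2, a homolog of EDEM1, had a log2 fold change of 0.14, 0.13, 0.14 and 0.08 on days 1, 2, 3 and 5, with both BRD9 KO libraries above both LacZ libraries each time, and passed on no day (adjusted p = 0.297, 0.271, 0.126 and 0.365). Also not called on any day were EDEM3 at -0.05 on day 5, the ubiquitin ligase SYVN1 at 0.07 and its partner SEL1L at 0.04, DERL1 at 0.11, DERL2 at 0.02, and SELK at -0.12.

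Of the 8 genes of translocation and signal peptide cleavage, SSR1 was lower on day 5 and SPCS3 higher on day 3. The share called was 12.5% on each of days 3 and 5, against 10.4% and 15% of all genes and 21.7% and 28.7% of the abundant genes. SSR1 encodes the alpha subunit of the translocon-associated TRAP complex. SSR1 stood at 276.5 and 275.5 CPM on day 1, 284.9 and 286.1 on day 2, 276.2 and 275.6 on day 3 and 262.6 and 267.6 on day 5 in LacZ cells. SSR1 in BRD9 KO cells stood at 290.5 and 281.8 CPM on day 1, 293.9 and 275 on day 2, 255.3 and 260.9 on day 3 and 219.4 and 241.2 on day 5. BRD9 KO was above LacZ on day 1 and below it on days 3 and 5. On day 5 the difference was -0.20 ± 0.037 (SE, adjusted p = 0.001), kept in all 11 alternatives. SPCS3, a signal peptidase subunit, was 111.5 and 111.1 CPM in BRD9 KO against 96.46 and 101.4 in LacZ on day 3, with BRD9 KO higher at 0.17 ± 0.042 (SE, adjusted p = 0.0131). Its adjusted p there was 0.092 without BRD9 KO replicate 1, 0.055 without BRD9 KO replicate 2 and 0.137 without LacZ replicate 1.

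SPCS2, another signal peptidase subunit, was the most abundant of this group by TPM. It was 65.31 and 80.35 CPM in BRD9 KO against 89.58 and 89.52 in LacZ on day 1. On day 3 it was 93.39 and 77.52 CPM in BRD9 KO against 80.7 and 91.46 in LacZ. On day 5 it was 85.57 and 82.03 CPM in BRD9 KO against 90.12 and 95.14 in LacZ. The BRD9 KO pair was the lower one on days 1 and 5, and the pairs overlapped on days 2 and 3. The 2 BRD9 KO libraries of days 1 and 3 lay well apart, and SPCS2 passed on no day in the edgeR test. The translocon genes SEC61A1, SEC61B and SEC61G were at 0.03, -0.01 and -0.06 on day 5, and the other TRAP subunits SSR2 and SSR3 at 0.04 and 0.03, none of them called on any day. WFS1, an ER membrane protein of calcium balance, was 65.49 and 62.86 CPM in BRD9 KO against 65.41 and 68.42 in LacZ on day 5, overlapping, at -0.06 (adjusted p = 0.533).

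**Figure D3:**
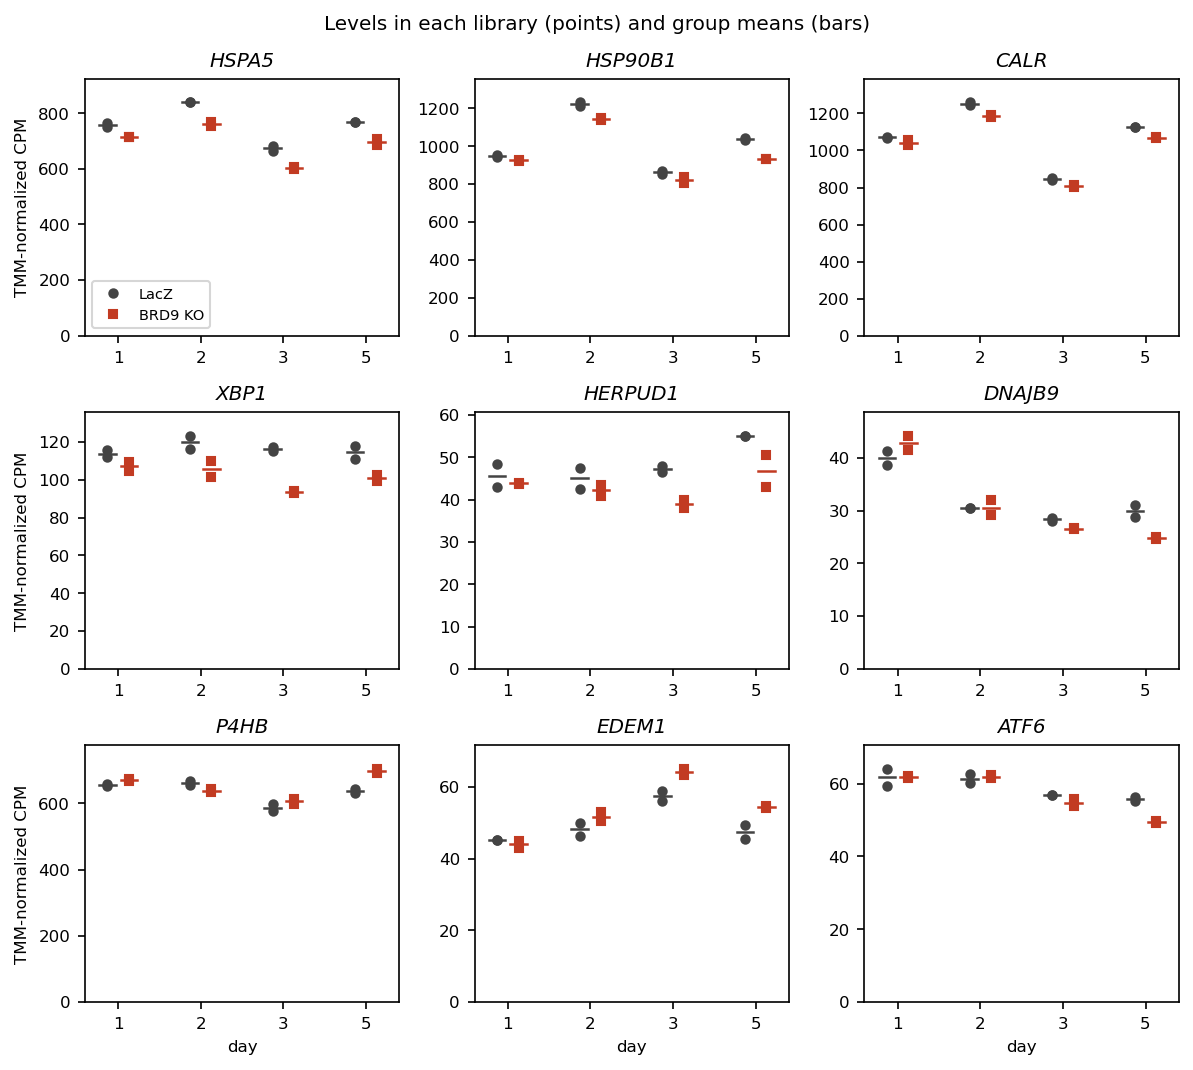
TMM-normalized CPM of 9 of the ER genes in each library, by day, with LacZ as circles, BRD9 KO as squares and short bars for the means of 2 libraries; all axes start at 0. HSPA5, HSP90B1, CALR and XBP1 are lower in BRD9 KO on each day, P4HB ends above and DNAJB9 and ATF6 below the control on day 5, and the movement between days in HSPA5, HSP90B1 and CALR is seen in both arms.

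Whether the effect of BRD9 KO differed between the late days (mean of days 3 and 5) and the early days (mean of days 1 and 2) was tested as 1 contrast, which called 1 gene higher and 3 lower (9.3% against a background of 7.43%, 3.41% higher and 4.03% lower; 15.8% among the abundant genes). DNAJB9 was at -0.23 ± 0.065 (SE, adjusted p = 0.0396), SSR1 at -0.17 ± 0.037 (SE, adjusted p = 0.00663) and CANX at -0.08 ± 0.018 (SE, adjusted p = 0.0104), each lower late than early. P4HB was at 0.10 ± 0.02 (SE, adjusted p = 0.0045), higher late than early. HSPA5 was at -0.04 ± 0.019 (SE, adjusted p = 0.277) and XBP1 at -0.12 ± 0.046 (SE, adjusted p = 0.169), so their late and early effects were not shown to differ. Limma-trend on log2(TPM + 1) called 0 members, with 4 at an unadjusted p under 0.05. With no filter on low counts the adjusted p was 0.0538 for CANX and 0.107 for DNAJB9, and DNAJB9 also lost its call with replicate numbers as a block (0.0636) and with DESeq2 (0.217). With 1 library left out at a time, DNAJB9 kept its call only without BRD9 KO replicate 2 of day 1 or 2, LacZ replicate 2 of day 1 or LacZ replicate 1 of day 5, and its adjusted p reached 0.156.

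In LacZ cells, which hold BRD9, the list also moved over the time course. From day 1 to day 5, 8 members were higher and 7 lower (34.9% against a background of 25.6%, 12.7% higher and 12.9% lower; 46.5% among the abundant genes), with a median of 0.00. HERPUD1 rose by 20.2% and HSP90B1 by 9.56%, at log2 changes of 0.27 ± 0.07 (SE, adjusted p = 0.00872) and 0.13 ± 0.017 (SE, adjusted p = 1.81e-05). SDF2L1 at 0.23, SSR3 at 0.11, DNAJB11 at 0.11, HYOU1 at 0.11, CALR at 0.07 and CANX at 0.06 were the other higher genes. DNAJB9 fell by 25.3% and OS9 fell by 17.5%, at -0.42 ± 0.062 (SE, adjusted p = 5.58e-05) and -0.28 ± 0.042 (SE, adjusted p = 7.64e-05). SSR2 at -0.22, ATF6B at -0.19, ATF6 at -0.15, SEL1L at -0.13 and PDIA4 at -0.08 were lower as well.

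Set beside the effect of BRD9 KO on day 5, which uses the same LacZ day 5 libraries, HSP90B1, CALR, CANX and HERPUD1 were called higher over time in LacZ and lower in BRD9 KO, while DNAJB9 and ATF6 were called lower in both. The LacZ day 5 level enters the 2 comparisons with opposite signs, so noise in those libraries moves the 2 values of a gene in opposite directions. HSPA5 and XBP1 were not called over time in LacZ, at 0.02 and 0.01. Without LacZ replicate 1 or replicate 2 of day 1 the count over time was 9. Limma-trend on log2(TPM + 1) kept HSP90B1, CALR, HERPUD1, OS9 and SSR2, and DESeq2 did not call DNAJB11, SDF2L1, PDIA4, ATF6, SEL1L and SSR3. The adjusted p of HERPUD1 was 0.121 without LacZ replicate 1 of day 1 and 0.0584 without LacZ replicate 1 of day 5, that of HYOU1 0.0597 without LacZ replicate 1 of day 1, 0.132 without LacZ replicate 2 of day 1 and 0.244 without LacZ replicate 1 of day 5, that of CANX 0.181 with no filter on low counts, 0.196 without LacZ replicate 1 of day 1 and 0.136 without LacZ replicate 2 of day 5, and that of PDIA4 0.0798 without LacZ replicate 1 of day 1, 0.083 without LacZ replicate 2 of day 1 and 0.193 without LacZ replicate 1 of day 5. That of SDF2L1 was 0.0709 with only the libraries compared, 0.148 with replicate numbers as a block, 0.392 without LacZ replicate 2 of day 1 and 0.307 without LacZ replicate 1 of day 5, and that of DNAJB11 0.219 with no filter on low counts, 0.116 with replicate numbers as a block, 0.158 without LacZ replicate 1 of day 1, 0.131 without LacZ replicate 2 of day 1 and 0.344 without LacZ replicate 1 of day 5. For ATF6 it was 0.0569 with only the libraries compared, 0.218 with replicate numbers as a block, 0.362 without LacZ replicate 2 of day 1, 0.146 without LacZ replicate 1 of day 5 and 0.0507 without LacZ replicate 2 of day 5, for SEL1L 0.0861 with replicate numbers as a block, 0.112 without LacZ replicate 1 of day 1, 0.111 without LacZ replicate 1 of day 5 and 0.0777 without LacZ replicate 2 of day 5, and for SSR3 0.133 with no filter on low counts, 0.1 with replicate numbers as a block, 0.118 without LacZ replicate 1 of day 1, 0.0985 without LacZ replicate 2 of day 1 and 0.205 without LacZ replicate 2 of day 5.

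The rest of the pathway was read from 7 further lists of 92 genes, 89 of them tested. On day 1, 0 were higher and 2 lower (2.25% called against a background of 0.539%), on day 2 these were 0 and 9 (10.1% against 2.7%), on day 3 they were 4 and 6 (11.2% against 10.4%), and on day 5 they were 6 and 17 (25.8% against 15%), with medians between -0.05 and -0.01. Among the abundant genes defined above the shares were 1.52%, 6.76%, 21.7% and 28.7%. In the PERK arm (10 genes) ATF4, its translationally controlled factor, was lower on day 1 (-0.16, adjusted p = 0.0339) and ATF3, a stress-induced factor, was higher on day 3 (0.36, adjusted p = 6.69e-06) and on day 5 (0.27, adjusted p = 0.000161). No other gene of the arm was called on those 4 days by edgeR.

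Among 12 cytosolic heat shock chaperones 7 were lower on day 2, with a median of -0.12, then 3 lower on day 3, and 4 lower and 1 higher on day 5. The share lower was 58.3%, 25% and 33.3% on these days, against 4.02%, 13.1% and 15.2% of the abundant genes and 1.58%, 5.85% and 7.45% of all genes. HSP90AA1 was at -0.10 (adjusted p = 0.00012) and HSPH1 at -0.16 (adjusted p = 0.000224) on day 5, while HSPA8, the constitutive HSP70, was lower on day 2 (-0.15, adjusted p = 2.36e-07) and higher on day 5 (0.05, adjusted p = 0.00712). On day 5, 5 of 16 other genes of translocation, signal recognition and signal peptide cleavage were lower, among them the signal peptidase subunit SPCS1 (-0.24 on the log2 scale, adjusted p = 0.00406) and the signal recognition particle subunit SRP9 (-0.12, adjusted p = 0.011). That share was 31.2%, against 7.45% of all genes and 15.2% of the abundant genes.

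Of 16 genes of the oligosaccharyltransferase and glycan trimming, 2 were higher on day 5, the mannosidase MAN1B1 (0.19, adjusted p = 0.00194) and TUSC3 (0.21, adjusted p = 0.00274), and 3 lower, among them GANAB (-0.11, adjusted p = 0.00223) and MAGT1 (-0.14, adjusted p = 0.0192). TUSC3 and MAGT1 are the alternative oxidoreductase subunits of the same complex. Of 10 other oxidoreductases tested, 2 were higher, PDIA5 (0.26, adjusted p = 0.00342) and QSOX1 (0.15, adjusted p = 0.0372), and 3 lower, among them GPX8 (-0.29, adjusted p = 0.00519) and ERP29 (-0.21, adjusted p = 0.0103). Of 12 other folding factors and proteases of the response, 2 were lower, CREB3L1, an ER-bound transcription factor (-0.45, adjusted p = 0.000146), and the collagen chaperone SERPINH1 (-0.09, adjusted p = 0.0274). Of 13 further degradation genes 0 were called on day 5 in edgeR's test. In the order given, the share called on day 5 in these lists was 31.2%, 50%, 16.7% and 0%. Of all genes 15% were called on that day, and of the abundant genes 28.7%.

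An ERSE was found in 7 of the 41 members with a promoter (17.1%) and in 22 of all 27305 promoters (0.0806%). The 7 are HSPA5, HSP90B1 (at 2 places), CRELD2, CALR, CANX, ERO1LB and XBP1. ERSE-II was found in HYOU1 (at 2 places), SDF2L1 and HERPUD1, and in 15 of all promoters (0.0549%). The UPRE core, TGACGTGG, an XBP1 and ATF6 site, was found in HYOU1, where it overlaps an ERSE-II, and in 217 of all promoters (0.795%). A match is a description of the letters and not a measured site. ER chaperone genes are those at which the ERSE acts, as described above, so its share in this list is no independent result. Of the 7 members with an ERSE, 0 were lower on day 1, 4 on day 2, 5 on day 3 and 5 on day 5, none was higher on those days by edgeR, and their median log2 fold change was -0.04, -0.08, -0.07 and -0.13. Of all genes tested 0.266%, 1.58%, 5.85% and 7.45% were lower on these days, and of the abundant genes 0.72%, 4.02%, 13.1% and 15.2%. The other 34 members with a promoter hold no exact match to the ERSE letters, though 3 of them hold an ERSE-II. HERPUD1, among these 3, also holds CCAAT, 9 bases and CCACA, a near match that was not counted. Of the 34, 0, 1, 3 and 6 were lower, and 2 were higher on day 3 and 2 on day 5, with medians of 0.00, -0.01, -0.02 and -0.03.

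This is not a test, since the promoters were compared with the results known and the genes with an ERSE include the most abundant of the list. Outside the list 15 genes hold an ERSE, of which 7 were tested, and edgeR called 0 of these 7 on any day. At an unadjusted p under 0.05 there were 1, 2, 0 and 2 on days 1, 2, 3 and 5. DESeq2 called 0, and limma-trend on log2(TPM + 1) called 1 on day 2. On day 5 they ranged from -0.24 for FICD, which AMPylates HSPA5, to 0.33 for ZNF17, with a median of -0.03, and SERP1, which stabilizes ER membrane proteins, was at -0.11 (adjusted p = 0.084).

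**Figure D4:**
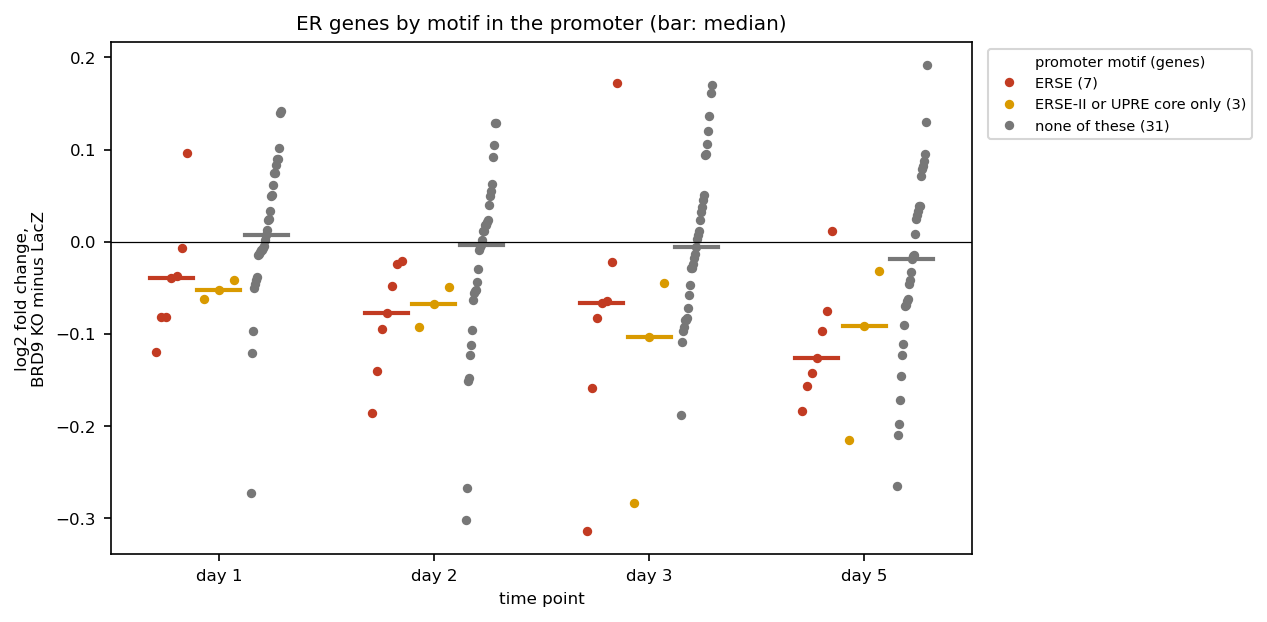
Log2 fold change, BRD9 KO minus LacZ, of the 41 members with a promoter, by day, split by the motif found: ERSE (7 genes), ERSE-II or UPRE core only (3) and none of these (31). Each point is a gene and each bar a median; the ERSE medians lie at -0.04, -0.08, -0.07 and -0.13, and the points of the groups overlap.

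Exons of 27 members overlap a gene on the opposite strand, HSP90B1, CALR, CANX, PDIA3, PDIA6 and P4HB among them, and the library kit does not mark strand, so reads of the 2 genes cannot be told apart there. PDIA3, XBP1, SSR1 and SPCS2 have named pseudogenes in the tables that can share their reads, and their values carry that uncertainty.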

How the data were processed

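RNA of 16 G401 libraries was sequenced, 8 BRD9 KO and 8 LacZ. The authors extracted total RNA with TRIzol, prepared libraries with an unstranded NEBNext Ultra kit, aligned reads to hg19 with STAR, quantified genes with RSEM and tested them with DESeq2. Versions are not given in the sources used here. The tests used expected counts, RSEM's estimate of reads per gene as the authors deposited it, rounded here to whole numbers. The deposited TPM, scaled by the authors' RSEM runs to transcript length and library total, served to compare levels between genes.

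Genes were kept by filterByExpr (minimum count 10, minimum total 15), scaled with TMM factors, and modelled in edgeR 4.0.16 (quasi-likelihood F test; R 4.3.3) with a mean for each of 8 groups. Calls needed a Benjamini-Hochberg adjusted p under 0.05 over 15027 genes. Library totals of 9185808 to 16560669 limit precision for scarce genes. The fit was run on simulated counts with 2-fold changes in 200 genes per day. It called 74.7% to 80.6% of the changed genes and 8 to 12 unchanged ones. Smaller changes, such as those of the members, were not simulated. Alternatives were DESeq2 1.42.0, DESeq2 size factors, other filters (none, or 1 CPM in 2 libraries), limma 3.58.1 on log2(TPM + 1), only the libraries compared, a replicate block, and leaving out each library. GRCh37 gene positions came from GENCODE, promoters from RefSeq (GRCh38.p14).

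The members, the further lists and the promoter motifs were chosen with earlier results of these data known. Values per library were given for HSPA5, ERN1, ATF6 and XBP1, and in each role for up to 3 members per direction with the largest change among those called on day 3 or 5 and for the most abundant member. In the further lists up to 2 called genes per direction were named by their day 5 p, and ATF4, ATF3 and HSPA8 on other days were named after their values were seen.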

Additional observations from a re-analysis of the deposited data

Results flagged for a closer look

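Of the ER genes, 4 had an effect of BRD9 KO that differed between the late days (mean of days 3 and 5) and the early days (mean of days 1 and 2) by edgeR's quasi-likelihood test of that difference, adjusted over 15027 genes. DNAJB9 was at -0.229 on the log2 scale (adjusted p = 0.0396), with BRD9 KO above LacZ on day 1 and below it on days 3 and 5, and lost its call with replicate numbers as a block (0.0636), with DESeq2 (0.217), with no filter on low counts (0.107) and in 12 of the 16 fits that left out 1 library. SSR1 was at -0.171 (adjusted p = 0.00663), with BRD9 KO above LacZ on day 1 and below it on days 3 and 5. CANX was at -0.0776 (adjusted p = 0.0104), with overlapping libraries on day 1 and BRD9 KO lower on days 2, 3 and 5, and had an adjusted p of 0.0538 with no filter. P4HB was at 0.0976 (adjusted p = 0.0045), with BRD9 KO below LacZ on day 2 and above it on days 1, 3 and 5. Limma-trend on log2(TPM + 1) called none of the 4, at adjusted p values of 0.431 for DNAJB9, 0.36 for SSR1, 0.697 for CANX and 0.0899 for P4HB, and 11 members had an unadjusted p under 0.05 in edgeR's test.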

How the results depend on the processing

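With 2 libraries per group the counts of called members rest on differences of a few percent in abundant genes, and depth limits what can be said of scarce ones such as ERN1. On day 1 the count of called members, 0, became 2 with no filter on low counts and 1 with DESeq2. On day 2 the count of 5 became 3 with only the libraries compared. Limma-trend on log2(TPM + 1) gave 1 on day 2, 2 on day 3 (10 in edgeR), 4 on day 5 (14 in edgeR), 0 for late minus early (4 in edgeR) and 5 for LacZ day 5 minus day 1 (15 in edgeR). Late minus early fell to 2 with no filter, and the LacZ comparison to 9 with DESeq2. The cause was not tested. SSR3 reversed in the LacZ comparison under limma-trend on log2(TPM + 1), at -0.02734 (adjusted p = 0.814). With each library left out in turn, counts ran from 0 to 0 on day 1, 1 to 4 on day 2, 3 to 7 on day 3, 10 to 11 on day 5, 3 to 4 for late minus early and 9 to 11 in the LacZ comparison. DESeq2 size factors or the filter of 1 CPM in 2 libraries left these counts as they were, and no scaling moved the median of all genes by more than 0.023 on the log2 scale. DESeq2 left 21 members without an adjusted p on day 1, 11 on day 2 and 2 for late minus early.

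Over all genes, limma-trend called 11, 103, 412 and 994 genes on days 1, 2, 3 and 5, 317 for late minus early and 1811 in the LacZ comparison, beside 81, 406, 1569, 2250, 1117 and 3847 in edgeR. DESeq2 called 893 on day 3, 1339 on day 5, 631 for late minus early and 2393 in the LacZ comparison. With no filter there were 290 on day 1, and with only the libraries compared 49.

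Replicate numbers were not shown to pair the libraries: the correlation of their deviations from the group means between the arms was -0.0123 on day 1, -0.0489 on day 2, -0.0245 on day 3 and -0.0176 on day 5 over 15027 genes, and -0.0435, -0.118, 0.101 and 0.177 over the 6273 genes with a mean log2 CPM above 5. With the replicate number as a block the members called were 0, 3, 10 and 16 on days 1, 2, 3 and 5, 3 for late minus early and 10 in the LacZ comparison.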
